A study of Mus musculus with 2 samples.

Results

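The cells described here are superficial epithelial cells from the corneal and limbal rim of mice, with high counts of Lce3a, a late cornified envelope gene. They were chosen by level alone, as barcodes with at least 1000 CPM of Lce3a (CPM, a gene's UMIs scaled to a common total per cell or group, where a UMI marks 1 captured transcript) and less than 2000 CPM each of Krt14, the basal keratin, and Dcn, the stromal proteoglycan decorin. The rule found 175 of 7668 cells, 121 of 5155 in the Beclin1 +/- library and 54 of 2513 in the wild-type library. Because the cells were picked by measured counts, every comparison of these members with other cells is a description and carries no test.

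The libraries came from a single female Beclin1 +/- mouse and a single female wild-type littermate on the C57BL/6 background, both 28 days old and healthy. Beclin1 +/- animals carry 1 altered copy of the Beclin1 gene (Becn1), whose product helps to form autophagosomes. Lens, retina, iris and trabecular network had been taken off the anterior segment, most of the conjunctiva had been cut away, and the rims were dissociated with collagenase A and trypsin before droplet sequencing by the 10x Genomics method. With 1 library per genotype, the genotype, the animal and the preparation cannot be told apart, and all intervals below cover counting error only.

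The corneal epithelium is a stratified, non-keratinised sheet that renews from basal cells. Cells flatten as they move outwards, and the outermost layer carries the tight junctions and the glycocalyx that face the tear film before it is shed. Late cornified envelope proteins are best known from the epidermis, where they are crosslinked under the plasma membrane of the dying outer cells. The LCE3 group is known in human skin for its induction after barrier damage and in psoriasis.

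The label came with 6 markers. All 6 were counted in both libraries, and their summed level was 64552 CPM in Beclin1 +/- members and 61139 CPM in wild-type members, against 3988 CPM in Beclin1 +/- and 2799 CPM in wild-type Krt14-low cells. The Krt14-low cells are the other epithelial cells with less than 2000 CPM each of Krt14, Krt13 and Dcn, less than 1000 CPM of Lce3a and at least 5000 CPM summed over Krt5, Krt12, Krt4, Krt13 and Krt78 (1209 Beclin1 +/- and 572 wild-type cells). A nearer neighbour was a group with at least 2000 CPM of Krt13, a keratin of non-cornified and conjunctival epithelium (296 Beclin1 +/- and 154 wild-type cells), called conjunctival-keratin cells here. They had the same limits on Lce3a and Dcn and none on Krt14, and 46 Beclin1 +/- and 24 wild-type members had as much Krt13. Their summed marker level was 17436 CPM in Beclin1 +/- and 13992 CPM in wild-type cells. Lce3a itself was part of the rule and is one of these markers. As all 6 were given with the label, their levels describe the members and do not check the label.

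Members made up 2.35% of Beclin1 +/- barcodes (95% exact binomial interval 1.95 to 2.80%) and 2.15% of wild-type barcodes (1.62 to 2.80%), so the shares overlapped within counting error. The deposited barcodes started at 5430 UMIs in the Beclin1 +/- and 8089 UMIs in the wild-type library. With the higher limit applied to both, members were 2.83% of Beclin1 +/- and 2.15% of wild-type barcodes. The lowest members had 1044 CPM of Lce3a in the Beclin1 +/- and 1053 CPM in the wild-type library, and the highest cells under the limit had 996 and 953 CPM in the same libraries. Another 34 Beclin1 +/- and 10 wild-type cells lay between 500 and 1000 CPM, so the limit cuts a continuum. The 2 libraries shared 15 barcodes, 2 of them members in the Beclin1 +/- and 0 in the wild-type library. Scrublet, a doublet caller, put 9 of 121 Beclin1 +/- and 3 of 54 wild-type members among the highest scores of their libraries. Over all barcodes, 213 of 5155 Beclin1 +/- and 51 of 2513 wild-type barcodes were so marked, numbers fixed by the rate that was set. All of these cells were kept.

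Lce3a lies on chromosome 3 (92925287 to 92926230, minus strand, mm10) in a row with Lce3b, Lce3c, Lce3d, Lce3e and Lce3f, which ends at 92993426. Windows of 300 bases around the start sites of the 3 members of this family that stood farthest from the Krt14-low cells, and of Isg15, the interferon gene among the markers, are printed to show what they share. The sequences are RefSeq promoter windows on GRCm38.p6, from 250 bases before to 50 after the start, on the strand of the gene. They lie at chr3:92926181-92926480 (Lce3a, minus strand), chr3:92932729-92933028 (Lce3b, plus strand), chr3:92991967-92992266 (Lce3f, plus strand) and chr4:156200769-156201068 (Isg15, minus strand). Capitals mark ATAAAA, the core of the interferon-stimulated response element (GAAA, any 2 bases, GAAA) and a 13-letter word, GTTGTGAAANCAG, which is the longest shared by the 3 Lce3 windows with at most 1 differing position.
Lce3a: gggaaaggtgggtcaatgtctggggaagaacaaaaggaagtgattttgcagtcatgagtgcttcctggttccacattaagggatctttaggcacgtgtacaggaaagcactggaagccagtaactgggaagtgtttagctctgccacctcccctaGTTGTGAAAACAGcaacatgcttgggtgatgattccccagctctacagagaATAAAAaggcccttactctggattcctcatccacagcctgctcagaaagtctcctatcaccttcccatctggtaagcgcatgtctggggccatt
Lce3b: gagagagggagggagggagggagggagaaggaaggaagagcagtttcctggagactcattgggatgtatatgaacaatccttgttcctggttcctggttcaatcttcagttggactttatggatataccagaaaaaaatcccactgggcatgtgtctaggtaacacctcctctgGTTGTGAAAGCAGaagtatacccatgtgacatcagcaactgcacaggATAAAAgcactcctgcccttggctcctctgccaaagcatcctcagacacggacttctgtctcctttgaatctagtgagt
Lce3f: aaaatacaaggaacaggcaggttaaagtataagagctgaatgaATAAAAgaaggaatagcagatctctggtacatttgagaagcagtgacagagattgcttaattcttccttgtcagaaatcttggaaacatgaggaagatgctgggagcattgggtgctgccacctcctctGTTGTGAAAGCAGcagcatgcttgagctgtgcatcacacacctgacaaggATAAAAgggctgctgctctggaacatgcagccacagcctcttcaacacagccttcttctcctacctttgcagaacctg
Isg15: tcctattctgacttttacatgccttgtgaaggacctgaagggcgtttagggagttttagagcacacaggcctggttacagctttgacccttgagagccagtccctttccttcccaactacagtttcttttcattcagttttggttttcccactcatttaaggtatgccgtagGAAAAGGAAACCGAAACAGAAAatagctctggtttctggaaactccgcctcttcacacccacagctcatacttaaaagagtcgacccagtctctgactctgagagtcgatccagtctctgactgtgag

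The shared word began 95 bases before the start of Lce3a, 76 before that of Lce3b and 78 before that of Lce3f. It was present in 5 of 32851 promoter windows (0.015%), searched on both strands, and the other windows were those of Il1b and Stra6l. Since the word was built from the Lce3 windows, its presence there is fixed by its choice. It was absent from the windows of Lce3c, Lce3d and Lce3e. The word ATAAAA, which resembles the box bound by the TATA-binding protein, stood in all 6 Lce3 windows and in 18.5% of all windows. In Isg15, the response element core matched at 3 overlapping places from 78 to 66 bases before the start, and 3.44% of all windows hold it. TATAAA (13.6% of all windows), which overlaps ATAAAA where an A follows it, TGANTCA of AP-1 (7.81%) and AACCNGTT of Grainyhead-like factors (2.09%) had no match in the 4 windows printed. A match is a run of letters and not a shown site.

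Lce3a was counted at 17792 CPM over all Beclin1 +/- members and 11415 CPM over all wild-type members. It was the eighth most abundant transcript of the Beclin1 +/- members. The Krt14-low cells had 33.2 CPM in the Beclin1 +/- and 20.3 CPM in the wild-type library, and the conjunctival-keratin cells 64.7 CPM in the Beclin1 +/- and 62.0 CPM in the wild-type library. Cells differed widely. The median member had 8602 CPM in the Beclin1 +/- library, with quartiles of 3622 and 26563 CPM and a highest cell of 77059 CPM. In the wild-type library the median was 7261 CPM, the quartiles 2426 and 14229 CPM and the highest cell 89672 CPM. The medians of the libraries were thus closer than their sums, and the upper quartiles stood farther apart.

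**Figure D1:**
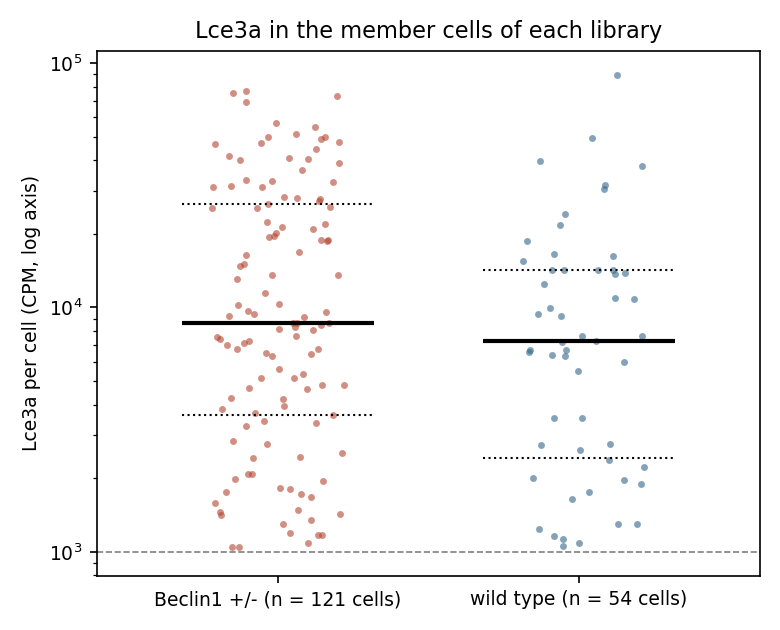
Lce3a of every member cell in CPM on a log axis, for 121 Beclin1 +/- and 54 wild-type cells. Solid lines are medians (8602 and 7261 CPM), dotted lines quartiles, and the dashed line the minimum of 1000 CPM that chose the cells; the range covers nearly 2 orders of magnitude in both libraries.

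Of the 27998 features, 1849 reached a mean of 50 CPM over the summed counts of members and Krt14-low cells. At least 2-fold higher in the members of both libraries were 292 of them (15.8%), and at least 2-fold lower 817 (44.2%). The median log2 ratio over all 1849 genes was -0.88 in each library, so the typical gene was lower in the members. This split depends on the scaling. TMM, a scaling by a trimmed mean of ratios, raised every ratio by 1.36 in the Beclin1 +/- and 1.38 in the wild-type library. It gave 681 higher and 204 lower of the 1849 genes. Their median log2 ratio became 0.48 in the Beclin1 +/- and 0.50 in the wild-type library, so TMM did not centre them at 0. Counted as UMIs per cell with no scaling, 312 were higher and 799 lower. Ratios below are on the CPM scale. TMM turned the median of several lists from below to above 0 in both libraries, namely serine proteases, keratins, immediate early genes, EGF receptor ligands, detoxification genes, lysosome genes and epithelial transcription factors. It did so for mitochondrially encoded genes in the Beclin1 +/- library and for barrier lipid genes in the wild-type library.

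The RNA of the members was carried by few genes. The 10 most abundant genes held 39.8% of the UMIs in Beclin1 +/- and 37.9% in wild-type members, against 16.1% in Beclin1 +/- and 14.1% in wild-type Krt14-low cells. The median member had 20150 UMIs and 1915 genes in the Beclin1 +/- library and 29288 UMIs and 2352 genes in the wild-type library. Krt14-low cells had 16017 UMIs and 2898 genes in the Beclin1 +/- library, and 24816 UMIs and 3796 genes in the wild-type library. By these medians members had more UMIs and fewer genes in both libraries, although the mean UMIs of wild-type members (29509) were below those of wild-type Krt14-low cells (32273). Ribosomal protein transcripts took 3.50% of a Beclin1 +/- and 2.88% of a wild-type member's UMIs, against 19.5% in Beclin1 +/- and 21.6% in wild-type Krt14-low cells. All 83 ribosomal protein genes measured were at least 2-fold lower in both libraries, and under TMM 80 of them stayed below the Krt14-low cells. As UMIs per cell they averaged 1016 in Beclin1 +/- and 1408 in wild-type members, against 3733 in Beclin1 +/- and 7276 in wild-type Krt14-low cells. Mitochondrial transcripts took 0.657% in Beclin1 +/- and 0.623% in wild-type members, against 1.63% in Beclin1 +/- and 1.78% in wild-type Krt14-low cells.

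The other members of the Lce3 row differed from each other. Of the 22 late cornified envelope genes in the list, 5 were measured and 4 were at least 2-fold higher, one of them Lce3a, whose difference the rule fixed. Lce3f had 1094 CPM in Beclin1 +/- and 882 CPM in wild-type members, against 2.35 CPM in Beclin1 +/- and 1.79 CPM in wild-type Krt14-low cells. Lce3b had 1013 CPM in Beclin1 +/- and 323 CPM in wild-type members, against 1.39 CPM in Beclin1 +/- and 1.35 CPM in wild-type Krt14-low cells. Crct1, a small cysteine-rich protein gene beside the LCE genes, had 1986 CPM in Beclin1 +/- and 1711 CPM in wild-type members, against 39.2 CPM in Beclin1 +/- and 24.2 CPM in wild-type Krt14-low cells. Lce3c was the exception. It had 167 CPM in Beclin1 +/- and 20.1 CPM in wild-type members, against 115 CPM in Beclin1 +/- and 139 CPM in wild-type Krt14-low cells, so its ratios had opposite signs (0.54 and -2.77 on the log2 scale).

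Lce3a transcripts were present in every member by rule, but its relatives were not. At least 1 UMI of Lce3f was found in 33.1% of Beclin1 +/- and 38.9% of wild-type members. In stromal cells, which should lack it, the shares were 0.664% in the Beclin1 +/- and 0.821% in the wild-type library. With each cell thinned to 5000 UMIs, the shares in members were 24.8% in the Beclin1 +/- and 29.6% in the wild-type library, and in stromal cells 0.265% and 0.328%. Lce3a had a UMI in 13.8% of Beclin1 +/- and 11.7% of wild-type stromal cells, whose median depths were 8396 and 11934 UMIs. The transcripts of the family are alike. Lce3a aligned to Lce3b at 85.7% identity and to Lce3d at 91.5%. Lce3a and Lce3b shared no stretch of 91 bases, and Lce3b and Lce3c shared 14. How reads that suit several copies were counted is not given in the sources used here, so the split between family members is uncertain.

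Few classical envelope genes accompanied them. Small proline-rich genes had 1 measured member of 14 in the files, Sprr1a, with 425 CPM in Beclin1 +/- and 114 CPM in wild-type members, against 1428 CPM in Beclin1 +/- and 1413 CPM in wild-type Krt14-low cells. Sprr2d was under the minimum. It was 195-fold higher in Beclin1 +/- members, from few cells as given below, and had 0 UMIs in wild-type members. Flg and Tgm3, which encode filaggrin and an epidermal transglutaminase, had 0 UMIs in the members, which allows up to 1.20 CPM in the Beclin1 +/- and 1.88 CPM in the wild-type library. Lor, for loricrin, had 0 UMIs in Beclin1 +/- and 1 UMI in wild-type members. Among 12 scaffold and crosslinking genes, 2 were higher and 8 lower, where 15.8% and 44.2% of all genes were. Cnfn, for cornifelin, had 2546 CPM in Beclin1 +/- and 2500 CPM in wild-type members, against 188 CPM in Beclin1 +/- and 190.3 CPM in wild-type Krt14-low cells. Cysrt1, a cysteine-rich tail gene, was 8.57-fold higher in the Beclin1 +/- and 12.8-fold higher in the wild-type library. The 8 lower genes were those of desmosomes and their plaques, Dsp, Dsg1a, Dsg3, Dsc2, Pkp1, Pkp3 and Jup, with Evpl for envoplakin. Desmoplakin (Dsp) had 86.1 CPM in Beclin1 +/- and 113 CPM in wild-type members, against 781 CPM in Beclin1 +/- and 904 CPM in wild-type Krt14-low cells. Under TMM the list had 3 higher and 5 lower genes, where 681 and 204 of all 1849 genes were. Dsp and Dsg1a remained below the Krt14-low cells under TMM.

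**Figure D2:**
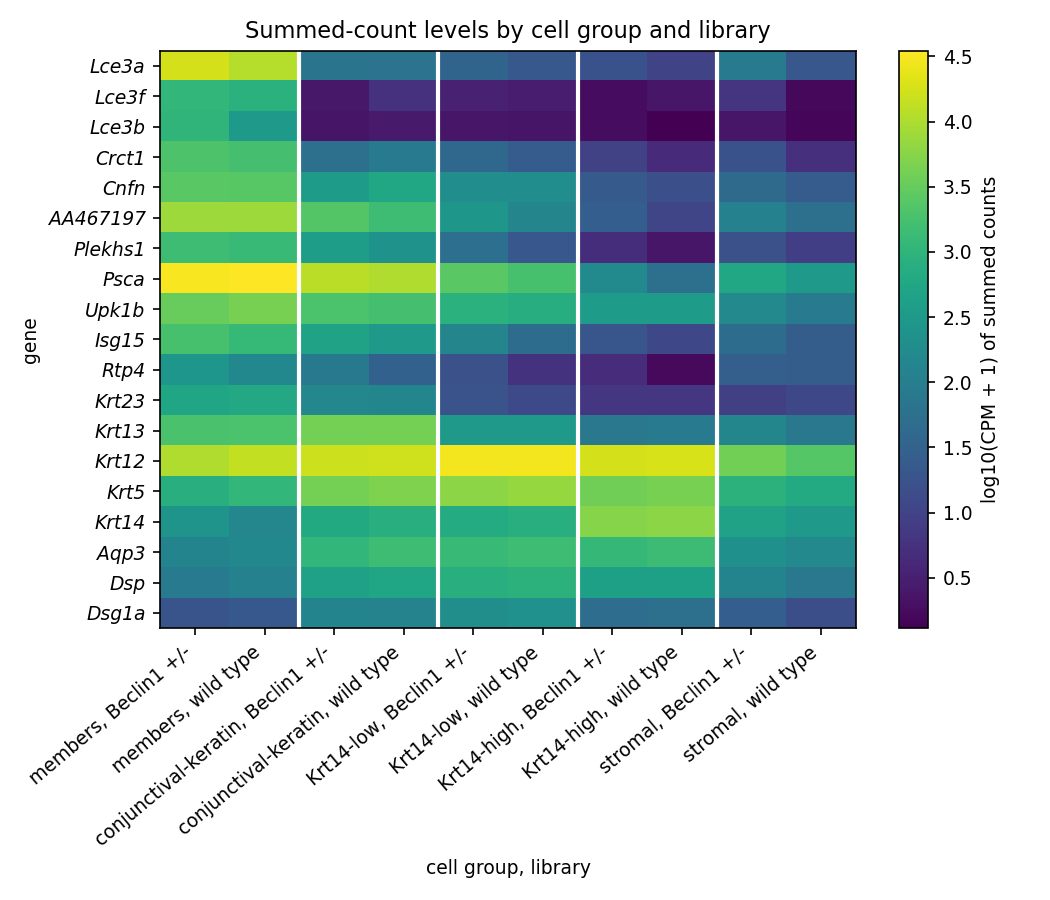
Level of 19 genes as log10(CPM + 1) of summed counts, by cell group and library, with Beclin1 +/- left of wild type in each pair. The Lce3 and Crct1 rows are brightest in the members at the left, Psca and AA467197 are next highest in the conjunctival-keratin cells, and Aqp3, Dsp and Dsg1a are darker in the members than in the other 3 epithelial groups.

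Psca, a GPI-anchored protein of the Ly6 family, was among the 10 most abundant transcripts of both libraries and had 32177 CPM in Beclin1 +/- and 34922 CPM in wild-type members, against 2599 CPM in Beclin1 +/- and 1817 CPM in wild-type Krt14-low cells. The quartiles of the cells were 23700 and 41513 CPM in the Beclin1 +/- library, and 29824 and 43549 CPM in the wild-type library, so Psca was far more even among members than Lce3a. Of 6 measured Ly6 and uPAR domain genes, Psca, Ly6a and Ly6e were higher and Lypd3 lower, where 15.8% and 44.2% of all genes were. Ly6a, known as Sca-1, was 24.3-fold higher in the Beclin1 +/- and 39.6-fold higher in the wild-type library. Of 8 genes of surface mucins and urothelial-type membrane, 4 were higher and 1 lower, beside the same shares over all genes. Upk1b, a tetraspanin of the urothelial plaque, had 3322 CPM in Beclin1 +/- and 4320 CPM in wild-type members, against 888 CPM in Beclin1 +/- and 758 CPM in wild-type Krt14-low cells. The membrane mucin Muc4 had 1476 CPM in Beclin1 +/- and 1544 CPM in wild-type members, against 371 CPM in Beclin1 +/- and 262 CPM in wild-type Krt14-low cells. Muc20 and the amino acid carrier Slc6a14 were the others. The lower gene was Aqp3, for a water and glycerol channel, with 129 CPM in Beclin1 +/- and 153 CPM in wild-type members, against 1257 CPM in Beclin1 +/- and 1461 CPM in wild-type Krt14-low cells. Muc16, a membrane mucin known at the ocular surface, had 0 UMIs in members of either library. The Krt14-low cells had 0.043 CPM of it in the Beclin1 +/- and 0.054 CPM in the wild-type library. Why it was nearly absent from these counts was not tested.

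Tight junction genes were divided. Claudin 23 (Cldn23) had 679 CPM in Beclin1 +/- and 836 CPM in wild-type members, against 67.8 CPM in Beclin1 +/- and 48.1 CPM in wild-type Krt14-low cells, and Tjp3, for a junction scaffold, was 2.37-fold and 3.08-fold higher in the Beclin1 +/- and the wild-type library. Claudins 3, 4 and 7 were lower. Cldn4 had 251 CPM in Beclin1 +/- and 189 CPM in wild-type members, against 1635 CPM in Beclin1 +/- and 1404 CPM in wild-type Krt14-low cells. The list of 8 had 2 higher and 3 lower genes, where 15.8% and 44.2% of all genes were. Under TMM it had 5 higher and 1 lower, where 681 and 204 of all 1849 genes were.

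Serine proteases were divided too. Of 21 protease and inhibitor genes, 9 were higher and 6 lower, where 15.8% and 44.2% of all genes were. Prss22 had 4684 CPM in Beclin1 +/- and 4994 CPM in wild-type members, against 265 CPM in Beclin1 +/- and 188 CPM in wild-type Krt14-low cells, and Prss8, the channel-activating protease prostasin, had 899.8 CPM in Beclin1 +/- and 1128 CPM in wild-type members, against 46.0 CPM in Beclin1 +/- and 35.8 CPM in wild-type Krt14-low cells. Prss27, Tmprss4, the kallikreins Klk8, Klk10 and Klk11, and the inhibitors Serpinb8 and Serpinb11 were higher too. Tmprss11a, Tmprss11b, Tmprss11d, Wfdc2, Serpinb1a and Serpinb5 were lower. Under TMM the list had 12 higher and 2 lower genes, where 681 and 204 of all 1849 genes were. Asprv1, an aspartic protease known to process filaggrin in skin, was among the 10 most abundant transcripts, with 23534 CPM in Beclin1 +/- and 31596 CPM in wild-type members. The Krt14-low cells had 4312 CPM of it in the Beclin1 +/- and 3384 CPM in the wild-type library.

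Genes of innate defence were mostly higher in the members. Of 9 measured antimicrobial and alarm genes, 7 were at least 2-fold higher and 0 lower, where 15.8% of all genes were higher, and the median log2 ratio was 2.26 in the Beclin1 +/- and 2.44 in the wild-type library. Lactotransferrin (Ltf) had 293 CPM in Beclin1 +/- and 133 CPM in wild-type members, against 5.82 CPM in Beclin1 +/- and 2.28 CPM in wild-type Krt14-low cells. S100a9, an alarm protein better known from neutrophils, had 1712 CPM in Beclin1 +/- and 1181 CPM in wild-type members, against 84.8 CPM in Beclin1 +/- and 40.7 CPM in wild-type Krt14-low cells. Its usual partner S100a8 had 21.6 CPM in Beclin1 +/- and 17.6 CPM in wild-type members. The 7 leukocyte markers summed to 2.40 CPM in Beclin1 +/- and 1.26 CPM in wild-type members, with 2 and 6 of them at 0 in the same libraries. The other antimicrobial and alarm genes that were higher were Il1a, Plac8, Pglyrp1, Cxcl1 and Cxcl2. Duoxa2, Noxo1, Il1r2, Tnf and Ltb were named because they were among the 20 genes that stood farthest above the Krt14-low cells. Their high ratios were fixed by that choice and are no support for the list. Duoxa2, the maturation factor of dual oxidase 2, had 197 CPM in Beclin1 +/- and 135 CPM in wild-type members, against 2.82 CPM in Beclin1 +/- and 2.22 CPM in wild-type Krt14-low cells. Noxo1, an organiser of NADPH oxidase 1, had 63.2 CPM in Beclin1 +/- and 64.6 CPM in wild-type members, against 1.95 CPM in Beclin1 +/- and 0.867 CPM in wild-type Krt14-low cells. Il1r2, the decoy receptor of interleukin 1, was 52.8-fold higher in the Beclin1 +/- and 54.8-fold higher in the wild-type library. The cytokine genes Tnf and Ltb, neighbours on chromosome 17, were 28.5-fold and 24.3-fold higher in the Beclin1 +/- library and 61.7-fold and 45.8-fold higher in the wild-type library. Against conjunctival-keratin cells, 4 of 10 measured antimicrobial and alarm genes were higher and 1 lower, where 8.16% and 26% of all genes were. There Il1r2 was 1.997-fold higher in the Beclin1 +/- and 1.993-fold higher in the wild-type library. In the same order, Duoxa2 was 3.04-fold and 4.55-fold higher, and Pglyrp1 was at 0.923-fold and 0.715-fold.

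Interferon-stimulated genes were mostly higher in the members. The labels name no infection and no interferon treatment. Of 11 measured genes, 8 were at least 2-fold higher, where 15.8% of all genes were, and 0 lower, with a median log2 ratio of 2.01 in the Beclin1 +/- and 2.78 in the wild-type library. Isg15, a ubiquitin-like modifier, had 1812 CPM in Beclin1 +/- and 1206 CPM in wild-type members, against 132 CPM in Beclin1 +/- and 47.5 CPM in wild-type Krt14-low cells. Irf7, the transcription factor that amplifies the interferon response, had 255 CPM in Beclin1 +/- and 261 CPM in wild-type members, against 25.3 CPM in Beclin1 +/- and 15.1 CPM in wild-type Krt14-low cells. Ifitm1, which encodes a membrane protein that restricts viral entry, had 11647 CPM in Beclin1 +/- and 11131 CPM in wild-type members, against 2890 CPM in Beclin1 +/- and 1626 CPM in wild-type Krt14-low cells. Irf1, Oasl1, Oasl2, Rtp4 and Psmb8 were the others. The list did not move as a block. Ifi27 was at 0.77-fold in the Beclin1 +/- and 0.84-fold in the wild-type library, and Ifitm3 at 0.96-fold and 0.89-fold. Ifit1 and Mx1 were under the mean of 50 CPM and are not among the 11. Ifit1 had 52.4 CPM in Beclin1 +/- and 24.5 CPM in wild-type members, against 49.9 CPM in Beclin1 +/- and 19.3 CPM in wild-type Krt14-low cells. Mx1 had 0 UMIs in the members of both libraries.

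Of 14 cholesterol synthesis genes, 11 were at least 2-fold lower, where 44.2% of all genes were, and Insig1, whose protein restrains the pathway, was the 1 that was higher, with 427 CPM in Beclin1 +/- and 584 CPM in wild-type members, against 80.4 CPM in Beclin1 +/- and 71.5 CPM in wild-type Krt14-low cells. The median log2 ratio was -2.06 in the Beclin1 +/- and -2.29 in the wild-type library, and under TMM -0.70 and -0.91. Under TMM 1 gene was at least 2-fold lower, where 204 of all 1849 genes were. Dgat2, the last enzyme of triglyceride synthesis, was 7.83-fold higher in the Beclin1 +/- and 8.93-fold higher in the wild-type library, whereas Scd2, Acsl1 and Fabp5 of the same 5 barrier lipid genes were lower. Gsto1, an omega-class glutathione transferase, had 86113 CPM in Beclin1 +/- and 87282 CPM in wild-type members, against 19066 CPM in Beclin1 +/- and 11702 CPM in wild-type Krt14-low cells. Adh6a was higher too, while Adh1, Adh7 and Aldh3a1 were lower. Of 11 lysosome genes, 1 was higher (Lgmn) and 5 lower, a share of lower genes close to the 44.2% over all genes. The list's median turned from -0.98 in both libraries to 0.38 in the Beclin1 +/- and 0.40 in the wild-type library under TMM. The TMM median over all genes was 0.48 and 0.50 in the same libraries. Of 7 autophagy genes, 2 were higher, where 15.8% of all genes were. They were Map1lc3a and Map1lc3b, whose LC3 proteins coat the autophagosome. Map1lc3b had 917 CPM in Beclin1 +/- and 786 CPM in wild-type members, against 408 CPM in Beclin1 +/- and 340 CPM in wild-type Krt14-low cells.

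The keratins differed in composition. Krt12, the keratin of corneal epithelium, had 10297 CPM in Beclin1 +/- and 13849 CPM in wild-type members, against 28702 CPM in Beclin1 +/- and 28865 CPM in wild-type Krt14-low cells, and with TMM its ratio was close to 0 (-0.12 in the Beclin1 +/- and 0.32 in the wild-type library). Of 14 keratins, Krt5, Krt6a, Krt12, Krt14, Krt15 and Krt16 were at least 2-fold lower, and Krt6b, Krt7, Krt13 and Krt23 higher. The share of lower keratins was close to the 44.2% over all genes. Krt14 was limited in both groups. Krt13 was limited in the Krt14-low cells and not in the members, which fixes its direction. The Krt14-low cells also had to reach a minimum keratin sum that includes Krt5 and Krt12, and the members did not. That choice favours lower ratios for Krt5 and Krt12, and its part in them was not tested. Krt6a and Krt6b are near-identical, so their split is uncertain. Krt23 had 526 CPM in Beclin1 +/- and 604 CPM in wild-type members, against 16.9 CPM in Beclin1 +/- and 11.3 CPM in wild-type Krt14-low cells. Under TMM 6 keratins were higher and 1 lower, where 681 and 204 of all 1849 genes were. All 4 measured basal adhesion genes, Itga6, Col17a1, Plec and Cd44, were lower under CPM and under TMM. None of 12 epithelial transcription factor genes was at least 2-fold higher and 6 were lower, again close to the share over all genes, among them Pax6, the eye master regulator, with 20.8 CPM in Beclin1 +/- and 54.0 CPM in wild-type members, against 156 CPM in Beclin1 +/- and 289 CPM in wild-type Krt14-low cells. With TMM this list had 2 higher and 2 lower genes, where 681 and 204 of all 1849 genes were. Of 17 immediate early and dissociation genes, Dusp1 and Zfp36 were higher, and Fos, Fosb, Jun, Egr1, Atf3 and Socs3 lower. All 3 cell cycle genes measured were lower, and 0 of them past 2-fold under TMM. Of 4 genes of EGF receptor ligands and receptors, Hbegf was higher and Areg and Epgn lower. Trex2 and Asprv1 were higher among 3 genes of cell death and nuclear loss. Beside the immediate early, cell cycle, EGF receptor and cell death lists, the shares over all genes were 15.8% higher and 44.2% lower.

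**Figure D3:**
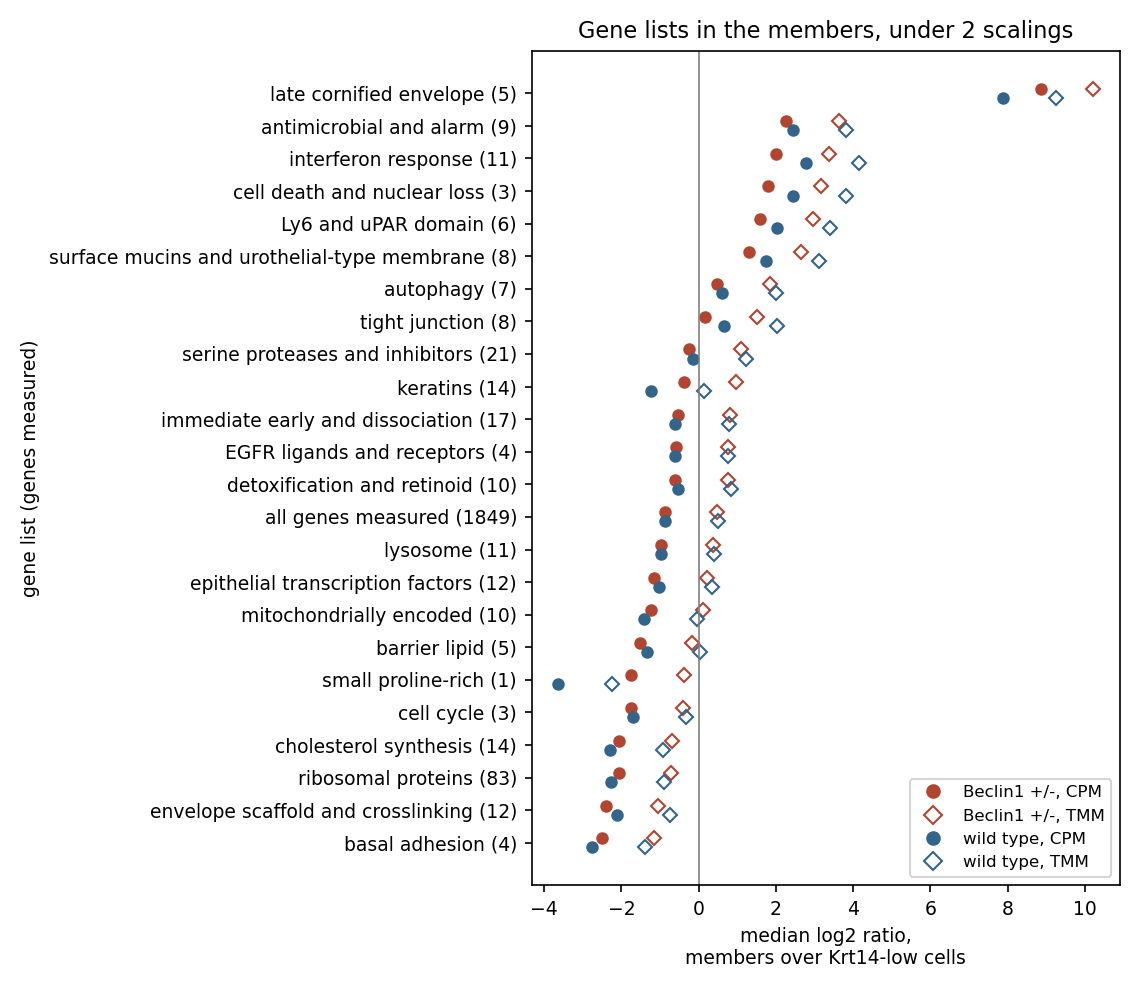
Median log2 ratio of members over Krt14-low cells for each gene list, with the number of genes measured, in the Beclin1 +/- (upper of each pair, red) and wild-type library (blue). Filled circles use CPM and open diamonds TMM; the 8 lists at the top are above 0 under both scalings, while lists between serine proteases and mitochondrially encoded genes move from below 0 to near or above it.

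The genes farthest below the Krt14-low cells were few per cell. Among the 12 that the rule took were Kctd11, E130012A19Rik, Rhov, Dnajc24, Gcat, Ahnak2, Dsg1a, Bhlhe40, Cks2, Foxq1 and Tgif1, and these stayed at least 2-fold lower under every alternative that was run. Their choice as the lowest made that likely. Ahnak2, a large scaffold protein gene, had 13.6 CPM in Beclin1 +/- and 16.3 CPM in wild-type members, against 153 CPM in Beclin1 +/- and 180.4 CPM in wild-type Krt14-low cells. The remaining genes of the 20 farthest above were Psors1c2, Smpdl3b, Alpl, Kprp, Asb11, Gm16233 and Apol9a. Alpl, the tissue-nonspecific alkaline phosphatase, had 383 CPM in Beclin1 +/- and 586 CPM in wild-type members, against 11.2 CPM in Beclin1 +/- and 9.10 CPM in wild-type Krt14-low cells. Gm16233 is annotated as antisense, and whether the counting used strand is not given in the sources used here. Smpdl3b, Noxo1, Kprp, Gm16233 and Ltb were over 50 CPM in the members but under the mean of 50 CPM that the counts of genes required.

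The conjunctival-keratin cells shared much of this profile at lower level. Of 1729 genes measured there, 141 (8.16%) were at least 2-fold higher in members of both libraries and 449 (26%) lower. AA467197, also known as Nmes1, had 7987 CPM in Beclin1 +/- and 7969 CPM in wild-type members, against 2241 CPM in Beclin1 +/- and 1484 CPM in wild-type conjunctival-keratin cells, and 281 CPM in Beclin1 +/- and 136 CPM in wild-type Krt14-low cells. Plekhs1, a pleckstrin homology domain gene, kept the same order, with 1463 CPM in Beclin1 +/- and 1307 CPM in wild-type members, against 381 CPM in Beclin1 +/- and 249 CPM in wild-type conjunctival-keratin cells. Of 5 late cornified envelope genes 4 were higher, Lce3a by rule and Lce3b, Lce3f and Crct1 beside it. Of 13 interferon genes 3 were higher than in conjunctival-keratin cells, and of 9 surface mucin and membrane genes 0 were. Upk1b was 1.74-fold higher in the Beclin1 +/- and 2.54-fold higher in the wild-type library. Conjunctival markers summed to 3370 CPM in Beclin1 +/- and 3033 CPM in wild-type members, against 8325 CPM in Beclin1 +/- and 8767 CPM in wild-type conjunctival-keratin cells. Goblet cell markers summed to 23.2 CPM in Beclin1 +/- and 16.3 CPM in wild-type members. In the same libraries 3 and 4 of the 5 were at 0. The Krt14-low cells had 11.6 and 3.58 CPM of them, and the conjunctival-keratin cells 43.0 and 50.4 CPM, in the same order. Among them, Spdef was 118-fold higher in Beclin1 +/- and 87.7-fold higher in wild-type members than in Krt14-low cells. Against conjunctival-keratin cells Spdef was 13.2-fold and 6.74-fold higher. Eyelid epidermis markers summed to 18.8 and 17.6 CPM in members, with 4 and 2 of 6 at 0.

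Across the 10 sums of 5 cell groups in 2 libraries, the genes most like Lce3a by Pearson correlation of log2(CPM + 10) were Cflar (r = 0.990), Lce3f (0.987), Nt5c3 (0.983), Gadd45a (0.978), Lce3b (0.977), Apol9a (0.977), Kprp (0.974) and Strn3 (0.973). The 10 sums share libraries and one group was chosen for Lce3a, so these values rank genes and test nothing. Cflar, the caspase-8 inhibitor c-FLIP, had 238 CPM in Beclin1 +/- and 234 CPM in wild-type members, against 43.1 CPM in Beclin1 +/- and 38.0 CPM in wild-type Krt14-low cells. Gadd45a, a stress-response gene, had 893 CPM in Beclin1 +/- and 948 CPM in wild-type members, against 133 CPM in Beclin1 +/- and 118 CPM in wild-type Krt14-low cells.

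Members were then split by their own counts, into Lce3a under 3000, 3000 to 10000 and over 10000 CPM. These ranges held 27, 40 and 54 Beclin1 +/- and 17, 16 and 21 wild-type cells. Lce3b was higher along them, with 69.8, 262 and 2022 CPM in the Beclin1 +/- and 25.1, 52.2 and 795 CPM in the wild-type library. Crct1 did so too, with 286, 447 and 3940 CPM in the Beclin1 +/- and 655, 969 and 3195 CPM in the wild-type library. Psca varied little, with 28778, 32510 and 33577 CPM in the Beclin1 +/- and 33132, 32055 and 38826 CPM in the wild-type library. Cldn4 ran the other way, with 492, 372 and 46.2 CPM in the Beclin1 +/- and 383, 197 and 26.7 CPM in the wild-type library, and Aqp3, Evpl, Jup, Lypd3 and Krt5 were also at least 2-fold lower in the highest than in the lowest range of both libraries. The lowest range held 8 of the 14 Beclin1 +/- and 4 of the 6 wild-type members with at least 2000 CPM of Krt5. Without those cells, an alternative chosen after seeing the data, the log2 ratio of the highest over the lowest range for Aqp3 was -0.54 in the Beclin1 +/- and -1.54 in the wild-type library, against -3.31 and -3.33 with them. Evpl alone of these 6 genes stayed past 2-fold in both libraries (-1.17 and -3.07), Cldn4 had -0.83 and -1.61, and Lypd3 (0.35 and -0.64) and Krt5 (0.02 and -0.70) had opposite signs. Lce3b kept ratios of 4.27 in the Beclin1 +/- and 4.62 in the wild-type library, and Crct1 of 3.69 and 1.98.

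A small share of members kept Krt5, the keratin of basal and intermediate layers, at 2000 CPM or more, 14 of 121 Beclin1 +/- and 6 of 54 wild-type cells. These cells had 2955 genes in the Beclin1 +/- and 3276 genes in the wild-type library at the median, against 1897 genes in Beclin1 +/- and 2276 in wild-type members with less Krt5. Aqp3 had 849 CPM in the Beclin1 +/- and 910 CPM in the wild-type Krt5-high members, against 32.3 CPM in Beclin1 +/- and 39.0 CPM in wild-type members with less. Dsg1a had 135 CPM in the Beclin1 +/- and 144 CPM in the wild-type Krt5-high members, against 1.82 CPM in Beclin1 +/- and 2.17 CPM in wild-type members with less. Psca was lower in them, with 11430 CPM in the Beclin1 +/- and 13279 CPM in the wild-type Krt5-high members, against 34972 CPM in Beclin1 +/- and 38188 CPM in wild-type members with less. Of these cells 4 of 14 in the Beclin1 +/- and 1 of 6 in the wild-type library had a high Scrublet score. Among all members 9 of 121 and 3 of 54 did, in the same order. The part of mixed droplets in the Krt5-high cells was not tested. Leaving them out gave 312 genes higher and 840 lower than in Krt14-low cells.

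Isg15 reached 2000 CPM in 33 Beclin1 +/- (27.3%) and 10 wild-type members (18.5%). Rtp4, for a receptor transport protein, had 478 CPM in the Beclin1 +/- and 518 CPM in the wild-type Isg15-high members, against 190 CPM in Beclin1 +/- and 78.9 CPM in wild-type members with less. Ifitm3 had 247 CPM in the Beclin1 +/- and 274 CPM in the wild-type Isg15-high members, against 64.2 CPM in Beclin1 +/- and 45.8 CPM in wild-type members with less. Irf7 had 394 CPM in the Beclin1 +/- and 533 CPM in the wild-type Isg15-high members, against 199 CPM in Beclin1 +/- and 207 CPM in wild-type members with less. Over single cells, Spearman correlation with Isg15 was 0.699 in 121 Beclin1 +/- and 0.600 in 54 wild-type members for Rtp4, and 0.411 and 0.457 in the same libraries for Irf7. Xaf1 had 0.503 in the Beclin1 +/- and 0.392 in the wild-type library, and Ifitm3 had only 0.305 and 0.112 in the same libraries. Ifi27 (-0.251), Ifi35 (-0.044) and Psmb8 (-0.019) were below 0 in the wild-type library, where Oasl2 had 0.048. Lce3a and Isg15 were more loosely related, at 0.324 in the Beclin1 +/- and 0.171 in the wild-type library. Cells of a library share depth and preparation, and these values are descriptions. Isg15 had a UMI in 96.7% of Beclin1 +/- and 96.3% of wild-type members, against 12.5% of Beclin1 +/- and 8.87% of wild-type stromal cells.

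**Figure D4:**
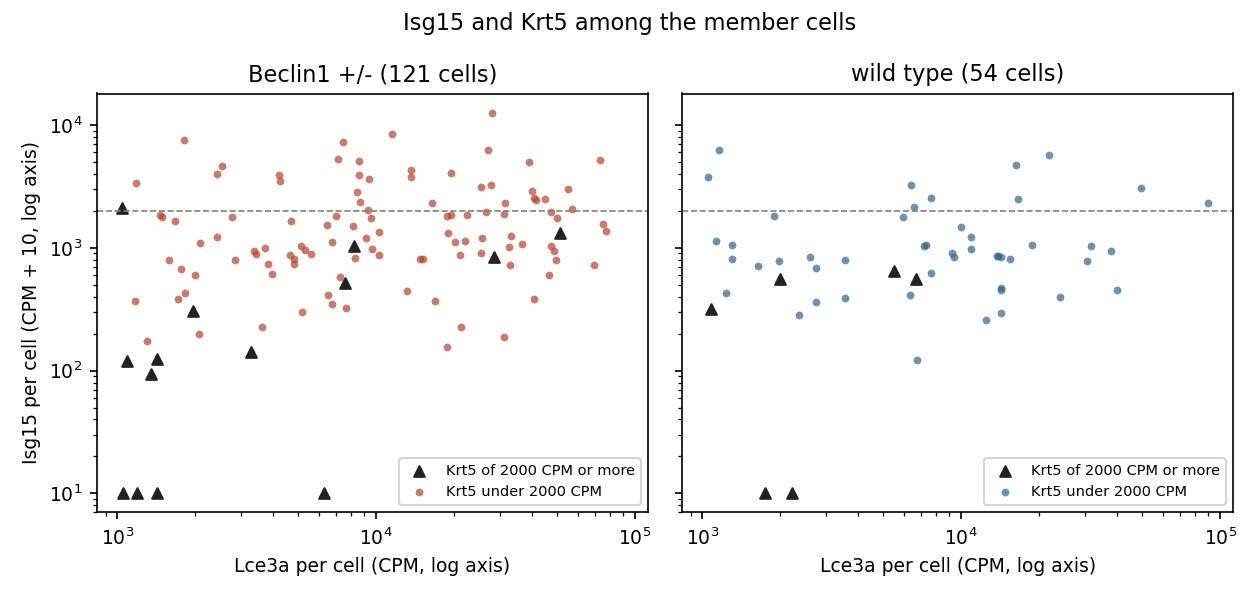
Isg15 (CPM + 10) against Lce3a (CPM) in each member cell, both on log axes, with the 121 Beclin1 +/- cells on the left and the 54 wild-type cells on the right. Triangles are the 14 Beclin1 +/- and 6 wild-type cells with at least 2000 CPM of Krt5, which include all cells with no Isg15 UMI (drawn at the bottom), and the dashed line is 2000 CPM of Isg15, which 33 Beclin1 +/- and 10 wild-type cells reach.

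The last comparison set the Beclin1 +/- members beside the wild-type members. Becn1 was counted at 48.8 CPM in Beclin1 +/- and 43.3 CPM in wild-type members, a log2 ratio of 0.17 with an exact 95% counting interval of -0.26 to 0.62. Where the altered copy differs is not in the labels, and 3′ tags of Becn1 therefore cannot serve as a check of them. The 8 autophagy genes measured had a median log2 ratio of 0.02, with 0 past 1.5-fold in either direction. Of 1405 genes that averaged 50 CPM or more over the 2 sums, 47 (3.35%) were at least 1.5-fold higher and 65 (4.63%) at least 1.5-fold lower in Beclin1 +/- members, and the median log2 ratio was -0.06. With TMM the split turned to 81 higher and 35 lower genes and the median to 0.06. No replicate stands behind any of these counts.

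Most markers were close between the genotypes. AA467197, Psca, Plekhs1 and Upk1b stayed within 1.5-fold, and AA467197 was nearly equal at a log2 ratio of 0.00 (-0.03 to 0.04). Lce3a had a log2 ratio of 0.64 (0.62 to 0.67), Isg15 of 0.59 (0.51 to 0.67) and Rtp4 of 0.85 (0.64 to 1.07). Ifit3, an interferon-induced protein with tetratricopeptide repeats, had 110.1 CPM in Beclin1 +/- and 39.5 CPM in wild-type members, but its transcript is 98.0% identical to that of Ifit3b, so the split between them is uncertain. Irf1 went the other way, with 246 CPM in Beclin1 +/- and 437 CPM in wild-type members. Of 13 interferon genes 3 were thus higher and 1 lower, where 3.35% and 4.63% of all genes were, with a median of 0.15. Isg15 was only just counted, at 1.502-fold against the limit of 1.5-fold, and its interval reached below that limit. The median cell had 1099.7 CPM of Isg15 in the Beclin1 +/- and 836 CPM in the wild-type library. Lactotransferrin was 2.20-fold higher in Beclin1 +/- members.

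Several of the largest genotype ratios rested on few cells. Sprr2d had 173 CPM in Beclin1 +/- members and 0 UMIs in wild-type members, where 3 counts would be 1.88 CPM, which makes it at least 92.1-fold higher, but 99.3% of its UMIs came from 5 of the 121 cells. Krt17, a keratin of stressed epithelium, had 153 CPM in Beclin1 +/- and 10.7 CPM in wild-type members, with 81.7% of the Beclin1 +/- UMIs in 5 cells. Krt4, a conjunctival keratin, had 137 CPM in Beclin1 +/- and 16.3 CPM in wild-type members, with 79.6% of the Beclin1 +/- UMIs in 5 cells. Lce3c had 72.2% of its Beclin1 +/- UMIs in 5 cells, and Aldh1a3, a retinaldehyde dehydrogenase gene, 69.5%. Of 14 keratins, Krt4, Krt14, Krt15, Krt16, Krt17 and Krt19 were at least 1.5-fold higher and Krt78 lower, where 3.35% of all genes were higher. Krt14 was one of the values that chose the members. The collagens Col1a1 and Col1a2 were also higher in Beclin1 +/- members, but with a Dcn limit of 500 CPM their log2 ratios were 0.30 and 0.39, under 1.5-fold. The 5 stromal markers, which include these collagens and Dcn, summed to 485 CPM in Beclin1 +/- and 178 CPM in wild-type members, with a highest cell of 11056 CPM in the Beclin1 +/- and 2118 CPM in the wild-type library. Sprr1a had 425 CPM in Beclin1 +/- and 114 CPM in wild-type members. Igfbp2, Gm20268, Lce3b and Psors1c2 were the other genes named as higher.

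Genes lower in Beclin1 +/- members included some known in inflammatory signalling. Nfkbia, for the inhibitor I-kappa-B alpha, had 845 CPM in Beclin1 +/- and 1663 CPM in wild-type members, a log2 ratio of -0.98 (-1.06 to -0.89). Map3k8, for a kinase of inflammatory signalling, had 113 CPM in Beclin1 +/- and 237 CPM in wild-type members, and Tnf had 70.9 CPM in Beclin1 +/- and 145 CPM in wild-type members. Ier2, an immediate early gene, had 136 CPM in Beclin1 +/- and 296 CPM in wild-type members. Of 12 immediate early genes 10 had ratios below 0 and 4 were past 1.5-fold, with 1 past it upwards. Over all genes 4.63% were past it downwards and 3.35% upwards, and the median log2 ratio was -0.06. The chemokine gene Cxcl2 had 197 CPM in Beclin1 +/- and 532 CPM in wild-type members, but 97.9% of the wild-type UMIs came from 5 of 54 cells. Cxcl1 had 77.3 CPM in Beclin1 +/- and 182 CPM in wild-type members. The antimicrobial and alarm list, which holds both chemokines, had 5 measured genes above 0 and 4 below, with a median log2 ratio of 0.02. Echdc3, Vsig10l, Il4i1, Dapl1, Vnn1 and Zfp36l1 were the other genes named as lower, and their levels in Beclin1 +/- members were between 0.31-fold and 0.50-fold of those in wild-type members. Dapl1 was under 1.5-fold in 4 alternatives and reversed to a log2 ratio of 0.077 without the cells of highest Scrublet score. Immediate early genes are known to respond to dissociation, and its part in these ratios was not tested.

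**Figure D5:**
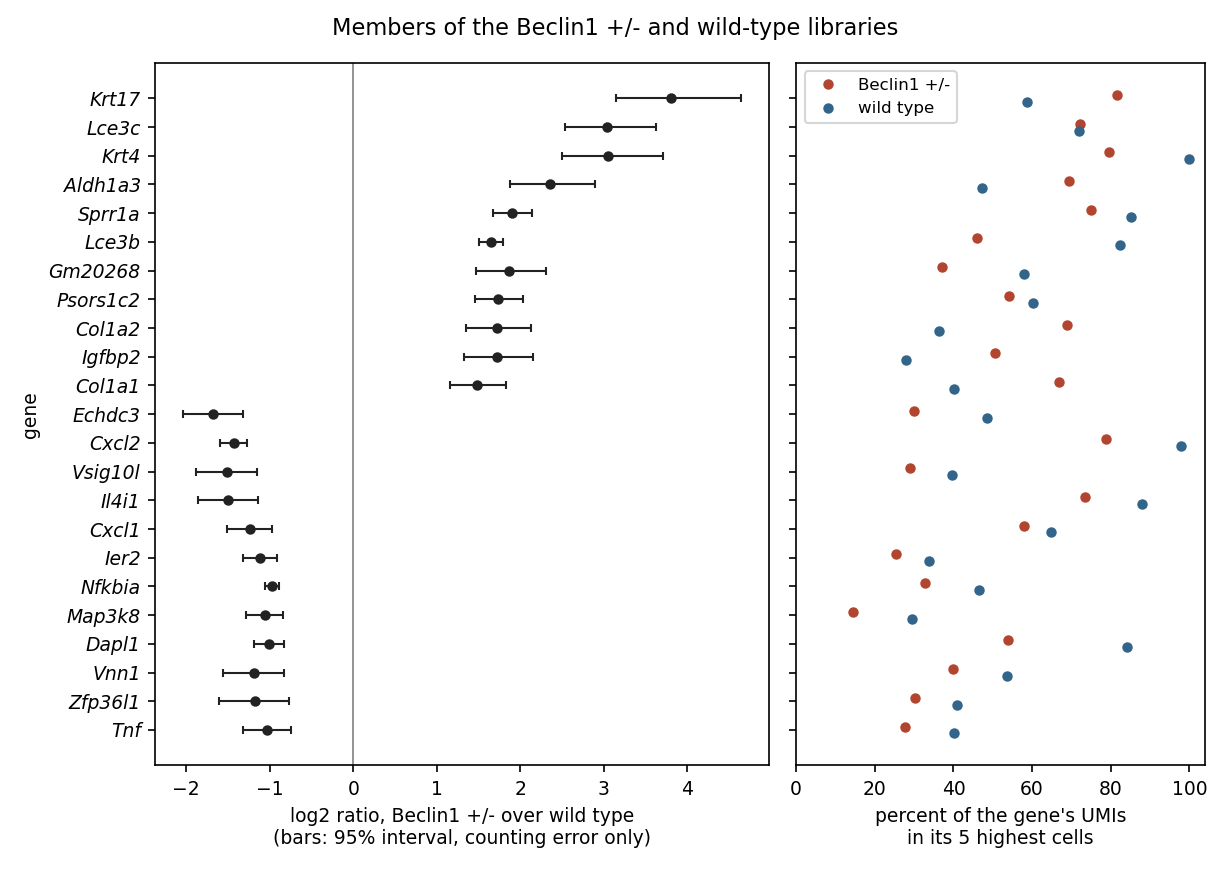
Left, log2 ratio of Beclin1 +/- over wild-type members for the 11 genes named as higher (without Sprr2d, which had 0 wild-type UMIs) and the 12 named as lower, with 95% counting intervals. Right, the percent of each gene's UMIs found in its 5 highest cells, which is 81.7% for Krt17 in the Beclin1 +/- and 97.9% for Cxcl2 in the wild-type library.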

How the data were processed

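The authors deposited raw UMI counts, 27998 features by barcode for each library. They were made with Cell Ranger 2.1.1 on mm10, per the submitters' processing notes. How cell barcodes were called is not given in the sources used here, and no barcode was removed. The libraries held 74363359 UMIs (Beclin1 +/-) and 54913980 UMIs (wild type), and the members 2498338 and 1593465 in the same order. Counts were summed per cell group and library and scaled to CPM, and ratios were formed with 0.5 added to each count. No test was run, as each genotype had 1 library. Intervals are exact (95% Clopper-Pearson or Poisson). Genes were counted at 2-fold in both libraries (members) or 1.5-fold (genotype).

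Named genes were the 20 highest and 12 lowest against Krt14-low cells by the ratio nearer 0, from at least 50 CPM in the members or in the comparison cells, the 12 highest and 12 lowest between genotypes by the interval bound nearest 0, the 8 most like Lce3a, and members of the lists. A gene that the rule took is not reported here. The cells, lists and rules were chosen with earlier results of these data known. A doublet caller (Scrublet in scanpy 1.11.5) was run per library at 0.8% per 1000 barcodes, and its calls were used only in an alternative. The ratio code was tested on simulated data. TMM came from edgeR 4.0.16. Gene positions came from GENCODE by Ensembl identifier (27645 of 27998 found). Sums and intervals used Python 3.11.15 with pandas 2.3.3, scipy 1.17.1 and numpy 2.4.6, and figures matplotlib 3.10.9.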

Additional observations from a re-analysis of the deposited data

How the results depend on the processing

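No paired analysis was possible because each genotype had a single library. Against Krt14-low cells, the 32 named genes kept their direction and stayed past 2-fold in 416 of 416 values over 13 alternatives, TMM included. These genes were chosen for the most extreme ratios in the same cells, which made this outcome likely in advance. The member share became 3.01% (Beclin1 +/-) with an Lce3a minimum of 500 CPM, 2.83% with a common lower limit of UMIs, and 1.46% (Beclin1 +/-) and 1.19% (wild type) without members of at least 2000 CPM of Krt13. Higher and lower genes against Krt14-low cells numbered 681 and 204 with TMM, 192 and 424 with a minimum of 100 CPM, and 3069 and 7069 with no minimum other than 1 count, and 1850 were lower with a minimum of 20 CPM. Higher and lower genes in Beclin1 +/- members numbered 81 and 35 with TMM, 105 and 193 with 20 CPM, 19 and 33 with 100 CPM, and 2631 and 3960 with no minimum; 113 were lower with an Lce3a minimum of 2000 CPM, and 119 with the 10% of cells highest in each gene left out, an alternative chosen after seeing the data, as were leaving out Krt5-high members and UMIs per cell. Fewer or more genes enter under other minimums, and for the rest the cause was not tested.

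Between genotypes, 295 of 312 values of the 24 named genes kept their direction past 1.5-fold. The log2 ratio reversed to -0.59 for Sprr2d without the 10% highest cells, to -1.28 for Lce3c with a higher Krt14 limit, to -0.13 for Krt4 with an Lce3a minimum of 500 CPM and to 0.077 for Dapl1 without the highest Scrublet scores. It fell under 1.5-fold for Col1a1 (0.30) and Col1a2 (0.39) with a Dcn limit of 500 CPM, for Lce3b (0.34) without Krt13-high members, for Psors1c2 (0.15) with the higher Krt14 limit, and for Aldh1a3 (0.02), Col1a1 (0.43) and Col1a2 (0.37) without the 10% highest cells. Both collagens also did so with an Lce3a minimum of 2000 CPM (0.39 and 0.40), and Dapl1 under 4 further alternatives (-0.45 to -0.00). Depth limits transcripts under 1.20 CPM in Beclin1 +/- and 1.88 CPM in wild-type members, where 3 counts would be expected.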
